A study of Mus musculus with 8 samples.

Results

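Foxp3+ regulatory T cells of the spleen were chosen by their UMI counts (unique molecular identifiers, each a counted transcript molecule) from 4 single-cell libraries of sorted live splenocytes. A cell was kept when it had more than 100 detected genes, more than 200 UMIs and at most 10% mitochondrial UMIs. It then needed at least 2 UMIs of Cd3d, Cd3e and Cd3g together, at most 1 of Cd79a and Ms4a1, at least 1 of Cd4, none of Cd8a or Cd8b1, at least 1 of Foxp3, and none of Il1rl1, Klrg1 or Areg. This left 252 cells out of 4451 CD4 T cells and 83704 cells in the whole series, with 59 and 47 in control replicates 1 and 2 and 62 and 84 in cKO replicates 1 and 2. The 12 genes of the gate were left out of every test of single genes, because the gate fixes or bounds their values. The tests of cell shares rest on some of them.

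The study followed mice in which Eif3e, a subunit of the translation initiation factor eIF3, was deleted in activated B cells. The cKO mice carried Eif3e fl/fl, Cγ1Cre and the Rosa26-YFP LSL reporter, and the control mice carried Cγ1Cre and Rosa26-YFP LSL. All mice were 2 months old, every library pooled the cells of 2 to 3 mice, and each genotype had 2 libraries of total splenocytes, whose replicate number is a batch number in the labels. Cγ1Cre is switched on with transcription of the Ig γ1 constant region in B cells, so T cells were not its intended target. YFP+ cells were sorted into 4 further libraries, where the gate found 7 and 1 cells (cKO) and 6 and 1 cells (control), and those were not compared.

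Regulatory T cells (Tregs) hold back immune responses, and the transcription factor Foxp3 is needed for their identity. They take up IL-2 through the high-affinity receptor chain Il2ra (CD25), remove costimulatory ligands from other cells through Ctla4, and many of them express Ikzf2 (Helios). In the spleen, resting Tregs keep the lymphoid homing receptor Ccr7 and the factors Lef1 and Tcf7, effector Tregs lose these and gain activation genes such as Icos, Tnfrsf9 and Prdm1, and follicular Tregs share genes such as Pdcd1 with follicular helper T cells.

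Eif3e itself, on chromosome 15 from 43250058 to 43282719 (GRCm38, minus strand), stood at 292 and 345 CPM in the Foxp3+ cells of control replicates 1 and 2, and at 300.2 and 274 CPM in those of cKO replicates 1 and 2. CPM are the UMIs of a gene summed over the cells of a library and scaled to the same total in each. The 2 groups of Eif3e values overlapped (log2 fold change -0.16, SE 0.34, adjusted p = 0.903, edgeR). A 3′ tag can also come from a transcript with an internal deletion. Each fold change below is on the log2 scale and came, with its standard error (SE) and its Benjamini-Hochberg adjusted p over all genes tested, from edgeR's quasi-likelihood test on the summed counts, with a threshold of 0.05.

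The sums over Foxp3+ cells held 452712 and 258076 UMIs in control and 489740 and 698249 UMIs in cKO, with medians of 7266, 5178, 6654 and 6077 UMIs per cell in the same order. Replicates of a genotype differed by more than the counting of independent UMIs allows, with a chi-square per degree of freedom of 3.66 in control and 4.93 in cKO. This value has no term for which cells were sampled, so it cannot tell differences between libraries from differences between cells. Pairs of libraries shared between 51 and 102 cell barcodes, out of 9310 to 11735 barcodes per library. The cKO replicate 1 library stood apart in Xist and, as given with the interaction, in Sparc and Cd36. Xist, the RNA of the inactive X chromosome, was at 0, 0, 500.3 and 0 CPM in the Foxp3+ cells of control replicates 1 and 2 and cKO replicates 1 and 2. Results that changed without that library are given with both values.

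The share of CD4 T cells that passed the gate lay within a narrow range. It was 5.84% (95% Wilson interval 4.55 to 7.45) and 5.46% (4.13 to 7.18) in control replicates 1 and 2, against 5.64% (4.42 to 7.16) and 5.68% (4.61 to 6.98) in cKO replicates 1 and 2. The cKO values lay between the control values, with a mean difference of 0.0107 percentage points (exact two-sided permutation test, p = 1, where 2 against 2 libraries cannot go below 0.333). The exclusion of Il1rl1, Klrg1 and Areg removed different parts of the CD4 T cells in the 2 genotypes, among Foxp3-positive and Foxp3-negative cells alike. These genes encode the IL-33 receptor ST2, an inhibitory lectin receptor of activated T cells, and the growth factor amphiregulin, and are known from tissue Tregs. The denominator kept the cells with these genes, so the share also depended on their number. With such cells left out throughout, 59 and 47 gated cells stood beside 905 and 776 Foxp3-negative cells in control. In cKO, 62 and 84 stood beside 766 and 827. Of all T cells, gated cells were 2.27% and 1.72% in control and 2.53% and 2.98% in cKO. With no exclusion, Foxp3-positive cells made up 7.52% and 7.67% of CD4 T cells in control and 14.9% and 20.96% in cKO, a ratio of 2.36 between the means (exact two-sided permutation test, p = 0.333, the smallest possible).

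**Figure D1:**
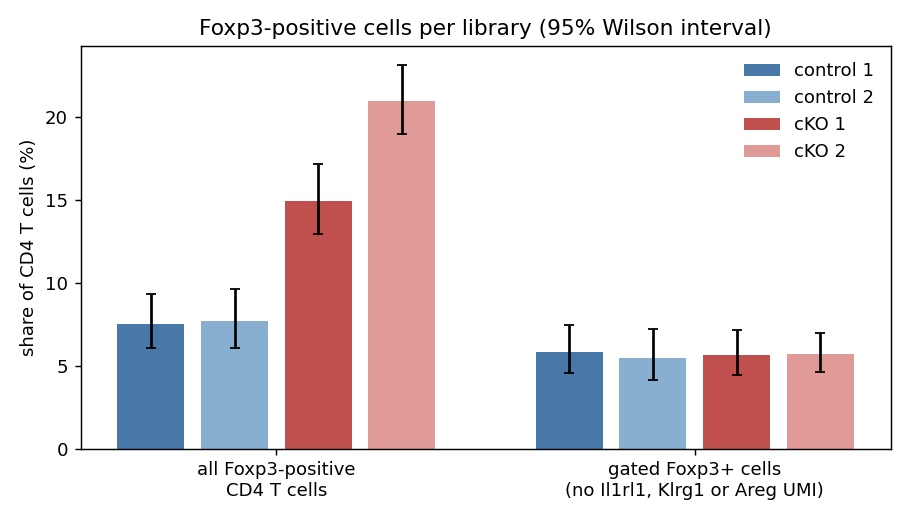
Share of CD4 T cells (%, y axis) that were Foxp3-positive, in each of 2 control and 2 cKO libraries, before (left) and after (right) leaving out cells with a UMI of Il1rl1, Klrg1 or Areg, where bars are libraries and whiskers are 95% Wilson intervals. All 4 libraries lie between 5.46% and 5.84% on the right, while the cKO libraries reach 14.9% and 20.96% on the left, above 7.52% and 7.67% in control. The denominator holds all CD4 T cells on both sides.

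The gate left out 22.4% and 28.8% of the Foxp3-positive CD4 T cells in control and 62.2% and 72.9% in cKO. After every cell was thinned to 2000 UMIs, which evens out depth, the left-out share was 11.4% and 21.1% in control and 45.8% and 55.7% in cKO. The share of CD4 T cells that passed the gate then became 3.08% and 3.51% in control and 4.11% and 4.76% in cKO, a difference of 1.14 percentage points (exact two-sided permutation test, p = 0.333). Among Foxp3-negative CD4 T cells, 3.21% and 2.39% in control and 18.2% and 29.3% in cKO had a UMI of Il1rl1, Klrg1 or Areg, so that a higher share of cells with these genes in cKO was not particular to Foxp3-positive cells. The Foxp3+ cells described here were most of the Foxp3-positive CD4 T cells in control and a minority of them in cKO, and every comparison of genotypes below is between these selected cells.

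The cells carried the markers of their name. Of the 252 cells, 242 had a UMI of at least 1 of Il2ra, Ctla4 and Ikzf2, 228 had at least 2 of these genes, 92 had all 3, and 10 had none. As a description of the gate's threshold, 108 cells had exactly 1 Foxp3 UMI, 58 had 2, 86 had 3 or more, and the highest had 14. Foxp3 UMIs were found in 0.121% to 0.324% of the B cells and in 0.398% to 0.572% of the CD8 T cells of the same libraries, at medians of 4647 to 6281 and 6860 to 8881 UMIs. Foxp3 itself stood at 309, 372, 278 and 308 CPM in control replicates 1 and 2 and cKO replicates 1 and 2, values set in part by the gate.

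Cells just inside the threshold already carried the markers more often than cells just outside it. Ctla4 was detected in 79.2%, 90.9%, 96.7% and 87.5% of the cells with 1 Foxp3 UMI (control replicates 1 and 2, cKO replicates 1 and 2), and in 32.8%, 33.2%, 40.5% and 47.0% of the cells with none. Ikzf2 was detected in 62.5%, 59.1%, 93.3% and 90.6% of the cells with 1 Foxp3 UMI. Without Foxp3 UMIs it was detected in 12.6% and 13.7% of control cells and in 38.1% and 47.4% of cKO cells. A cell without a Foxp3 UMI is not shown to lack Foxp3 at this depth.

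**Figure D2:**
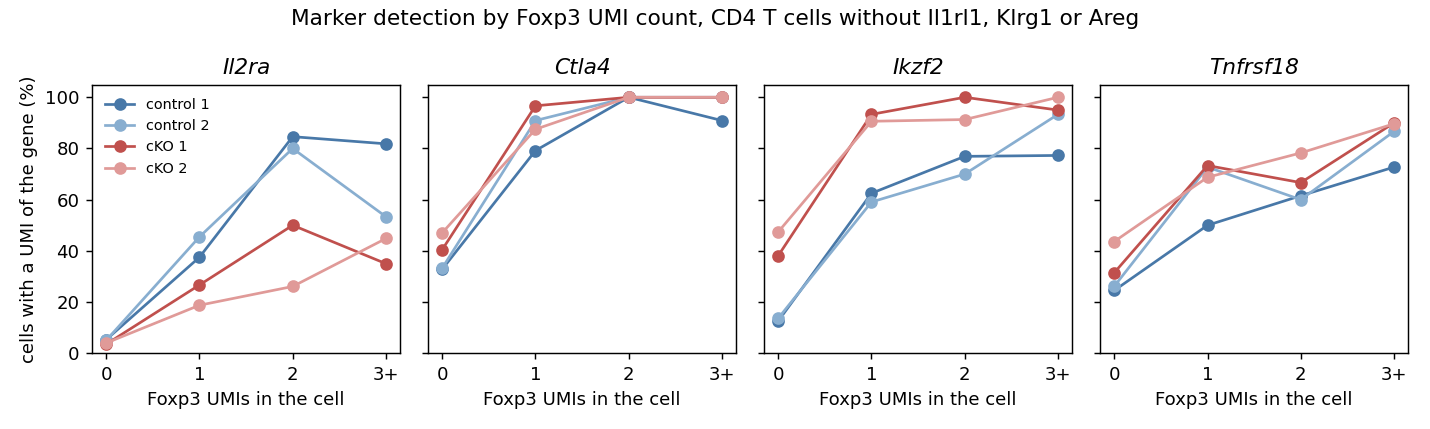
Percentage of cells with at least 1 UMI of Il2ra, Ctla4, Ikzf2 or Tnfrsf18 (y axis) against the number of Foxp3 UMIs in the cell (x axis), with one line per library, in CD4 T cells without Il1rl1, Klrg1 or Areg. All 4 genes step up between 0 and 1 Foxp3 UMI, and for Ikzf2 the cKO libraries begin at 38.1% and 47.4%, above 12.6% and 13.7% in control.

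Foxp3+ cells were next compared with the Foxp3-negative CD4 T cells of the same library, 905 and 776 cells in control and 766 and 827 in cKO, to describe what else distinguished them. These cells too had no UMI of Il1rl1, Klrg1 or Areg, which left out 30 of 935 and 19 of 795 Foxp3-negative cells in control and 170 of 936 and 342 of 1169 in cKO, so the genotype effect in them and the interaction are also between unevenly selected cells. Of 10142 genes tested, 1025 were called (10.1%), 482 higher (4.75%) and 543 lower (5.35%) in Foxp3+ cells. With sums scaled by total UMIs in place of TMM, the median over all genes moved from -0.03 to 0.10 and the split became 747 higher and 373 lower. With no block for the library in the model, 145 genes were called. Without cKO replicate 1, 555 were called.

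Of the 15 members of the Treg identity list tested, 11 rose, none fell and 4 did not pass the test, with a list median of 2.36 against -0.03 for all genes. Il2ra stood at 340.2 and 341 CPM in control and 257 and 136 CPM in cKO Foxp3+ cells, against 8.19 to 16.3 CPM in Foxp3-negative cells (log2 fold change 4.21, SE 0.16, adjusted p = 7.75e-14). The latent TGF-β receptor Lrrc32 (GARP) stood at 58.1 to 102 CPM against 2.67 to 11.4 CPM (3.36, SE 0.24, adjusted p = 3.23e-09). The integrin chain Itgae (CD103) rose by 3.72 (SE 0.45), the costimulatory receptor Tnfrsf18 (GITR) by 1.77 (SE 0.12), the Ikaros family member Ikzf4 by 1.78 and the folate receptor family member Izumo1r by 1.62. No library of Foxp3+ cells overlapped the Foxp3-negative cells for Il2ra, Lrrc32, Tnfrsf18 or Izumo1r. 

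Ctla4 and Ikzf2 separated the cell classes less evenly. Ctla4 stood at 1615 and 3096 CPM in control and 1364 and 1548 CPM in cKO Foxp3+ cells, against 194, 279, 323 and 409.6 CPM in Foxp3-negative cells. Its fold change was 2.49 (SE 0.36, adjusted p = 0.0456), and the call was lost without control replicate 1 (adjusted p = 0.186), cKO replicate 1 (adjusted p = 0.105) and cKO replicate 2 (adjusted p = 0.0831). Ikzf2 did not pass the test (2.36, SE 0.69, adjusted p = 0.199), although every Foxp3+ value, from 1248 to 2367 CPM, was above every Foxp3-negative value, from 86.6 to 770.0 CPM. The fit gave both genotypes the same cell class effect, whereas both genes were called in the interaction below (-1.23 for Ctla4, -2.31 for Ikzf2). The part of this in their adjusted p-values was not tested. 

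Of 14 suppressive molecules, 4 rose and none fell. Besides Ctla4, these were the galectin Lgals1 (0.98, SE 0.11), the ectonucleotidase Entpd1 (CD39; 1.43, SE 0.26) and Ebi3, a cytokine chain (1.69, SE 0.29). Entpd1 stood at 44.2, 89.1, 32.7 and 28.6 CPM in control replicates 1 and 2 and cKO replicates 1 and 2, against 12.9 to 15.3 CPM in Foxp3-negative cells. 

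Of 21 effector Treg genes, 13 rose and none fell. The TNF receptor family member Tnfrsf9 (4-1BB) was at 209.8, 217, 419 and 338 CPM in Foxp3+ cells and at 21.4 to 68.8 CPM in Foxp3-negative cells (2.73, SE 0.14, adjusted p = 1.44e-11). The glutaredoxin Glrx rose by 2.21 (SE 0.18), the repressor Prdm1 (Blimp-1) by 1.87 (SE 0.28), the costimulator Icos by 0.74 (SE 0.11), the nuclear receptor Rora by 0.71 and S100a11 by 0.58. Of the 12 resting genes, 10 fell and none rose. The transcription factors Tcf7, Satb1 and Lef1 fell by 1.42, 1.39 and 1.36, and Foxp1 and the migration regulator Klf2 fell by 0.78 and 0.54. Lef1 was at 676, 426, 278 and 233 CPM in Foxp3+ cells against 1321, 989.6, 800.2 and 542 CPM in Foxp3-negative cells, lower in every library. 

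Genes of costimulation and NF-κB gave 10 of 17 higher and none lower. Tnfrsf1b (TNF receptor 2) rose by 1.25 (SE 0.14), the apoptosis inhibitor Birc3 by 0.54 (SE 0.11), and the subunits Rel and Nfkb1 by 0.46 and 0.46. The call of Rel was lost without control replicate 1 (adjusted p = 0.218) and cKO replicate 1 (adjusted p = 0.177), and that of Nfkb1 without control replicate 1 (adjusted p = 0.0838), control replicate 2 (adjusted p = 0.0816) and cKO replicate 1 (adjusted p = 0.0989). Of 14 genes of the IL-2 receptor and STAT5 list, 5 rose and 1 fell. The STAT5 targets Cish (2.18, SE 0.18), Socs2 (2.39, SE 0.40) and Pim1 (1.14, SE 0.12) rose, as did Socs1 (0.53), which lost its call without control replicate 2 (adjusted p = 0.0648) and cKO replicate 1 (adjusted p = 0.0907), while the kinase Jak1 fell by 0.51 (SE 0.10). 

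Of 10 helper T cell genes tested, 5 were not called. Il4, the receptor chain Il4ra, Ifng and Stat4 fell and Gata3 rose. Il4 was at 2.21, 0, 32.7 and 117 CPM in Foxp3+ cells against 4.98, 28.3, 117 and 294 CPM in Foxp3-negative cells (fell by 1.65, SE 0.22, adjusted p = 1.11e-05). Ifng fell by 2.23 (SE 0.57) and lost its call without cKO replicate 2 (adjusted p = 0.0671). Il4ra fell by 1.04 (SE 0.18), and Stat4 fell by 0.40, a call lost without cKO replicate 1 (adjusted p = 0.120) and cKO replicate 2 (adjusted p = 0.231). Gata3 was at 133, 93.0, 251 and 262 CPM against 57.2, 62.8, 123 and 145 CPM (0.81, SE 0.13, adjusted p = 1.38e-04). 

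Of the 16 follicular genes tested, Cd40lg, the ligand by which helper T cells activate B cells, fell by 2.09 (SE 0.21), and the decoy receptor Il1r2 rose by 1.48 (SE 0.20). Sostdc1 fell by 2.79, a call lost without control replicate 1 (adjusted p = 0.113) and control replicate 2 (adjusted p = 0.118). Among 18 trafficking receptors, Ccr4, Ccr8, Ccr6 and Ccr2 rose, and S1pr1, Ccr7 and Gpr183 were among those that fell. Ccr4 rose by 1.48. Ccr8 rose by 1.73 and lost its call without cKO replicate 2 (adjusted p = 0.0822), and Ccr6 rose by 1.84 and lost its call without control replicate 1 (adjusted p = 0.0653) and cKO replicate 1 (adjusted p = 0.129). S1pr1 and Ccr7, which guide exit from and entry into lymphoid tissue, fell by 1.18 and 0.97. 

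The other lists held few calls. Of the 18 T cell receptor signal genes, Tnfrsf9 and Egr1 (0.84) rose and the adaptor Lat and the phosphatase Dusp2 fell by 0.45 and 0.46. The call of Lat was lost without control replicate 1 (adjusted p = 0.0623), cKO replicate 1 (adjusted p = 0.144) and cKO replicate 2 (adjusted p = 0.0688), and that of Dusp2 without control replicate 1 (adjusted p = 0.0679), cKO replicate 1 (adjusted p = 0.392) and cKO replicate 2 (adjusted p = 0.161). Of 16 cell cycle genes 1 rose, the replication helicase subunit Mcm6 (0.84, SE 0.16). Of 16 interferon-stimulated genes, Gbp7 (0.95) and Isg20 (0.93) rose and Slfn2 fell by 0.49. The call of Isg20 was lost without control replicate 2 (adjusted p = 0.0856) and cKO replicate 1 (adjusted p = 0.109), and that of Slfn2 without control replicate 1 (adjusted p = 0.0771) and cKO replicate 1 (adjusted p = 0.229). No gene of the eIF3 subunit, plasma cell, erythroid and platelet, or sex-linked lists was called. 

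Outside the lists, the 8 genes with the lowest p that rose were Fam129a, S100a10, Cep112, Rad51b, Ptprj, Swap70, Arhgap31 and Phlpp1. Cep112, a centrosomal protein gene, was at 37.6, 27.1, 55.1 and 103 CPM in Foxp3+ cells and at 0.205 to 4.57 CPM in Foxp3-negative cells (4.40, SE 0.40, adjusted p = 4.29e-08). Fam129a rose by 2.09 (SE 0.16), and S100a10, Rad51b, Ptprj, Swap70, Arhgap31 and Phlpp1 by 1.05 to 1.94. The 8 that fell were Themis, Gramd3, Tpt1, Tgfbr2, Scml4, Rflnb, Itm2a and Hs3st3b1. Themis, which acts in T cell receptor signalling, was at 269, 139, 184 and 172 CPM against 811, 558, 592 and 421 CPM (fell by 1.74, SE 0.12, adjusted p = 3.23e-09). The TGF-β receptor chain Tgfbr2 fell by 1.59 (SE 0.13). 

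RNA of B cell markers was higher in the sums over Foxp3+ cells than in those over the Foxp3-negative cells of the same library. Summed over 12 B cell markers outside the gate, none of them at 0 in all 4 libraries, it was 1221 to 2042 CPM in Foxp3+ cells and 706 to 1116 CPM in Foxp3-negative cells, and Ighm rose by 0.98 (SE 0.18, adjusted p = 0.00854). The 7 CD8 T and NK cell markers summed to 44.4 to 271 CPM against 189 to 356 CPM, with Eomes, Klrd1 and Klrb1c lower in Foxp3+ cells. Of the 6 NKT and gamma delta T cell markers, Zbtb16 and Tcrg-C2 were at 0 in Foxp3+ cells of all 4 libraries, and the sum was 4.08 to 19.4 CPM against 37.1 to 44.5 CPM. The 11 myeloid markers summed to 133 to 165 CPM against 113 to 365 CPM, with Lyz2 lower, at 0, 15.5, 4.08 and 5.73 CPM against 6.44, 152, 7.24 and 5.88 CPM, a call lost without control replicate 2 (adjusted p = 0.457). Of 11 dissociation stress genes, 2 were called, both higher, with Dusp1 at 0.73 and Fosb at 0.70, the latter lost without control replicate 1 (adjusted p = 0.211), control replicate 2 (adjusted p = 0.173) and cKO replicate 1 (adjusted p = 0.288). The part of these RNAs in the other differences was not tested. A stricter gate, without cells holding a UMI of a B cell marker, Lyz2 or Nkg7 and without the deepest CD4 T cells, called 722 genes, 607 of them among the 1025.

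Foxp3+ cells were then compared between genotypes, in a fit without a block. Its count is not like the 1025 between cell classes, which had the library as a block. With no block there, 145 of 10142 genes were called. Of 6511 genes tested in Foxp3+ cells, 92 were called (1.41%). Of these, 49 rose (0.753%) and 43 fell (0.66%) in cKO. The direction of the 92 held under each of 12 other settings wherever they could be fitted. DESeq2 called 19 genes, 13 higher and 6 lower, all among the 92, and a model with the batch number as a block called 461, 209 higher and 252 lower, which included all 92. Without control replicate 1 the count was 50, without control replicate 2 it was 99, without cKO replicate 1 it was 122, and without cKO replicate 2 it was 39. Of the 92 genes, 13 were called in each of these 4 fits, and Tshz2, Nav2, Epas1, Smco4 and Grap2 were called under all 12 settings. 

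Several genes that rose were nearly absent from the gated Foxp3+ cells of control. Their levels in Foxp3-negative cells, and those of Nav2, Epas1, Smco4, Ttc39c and Lima1, are not given here. A rise particular to Foxp3+ cells is therefore not shown for them. Tshz2, a zinc finger homeobox gene on chromosome 2, was at 4.42 and 7.75 CPM in control and at 231 and 180.5 CPM in cKO (log2 fold change 4.38, SE 0.58, adjusted p = 5.58e-08). It was found in 2 and 2 of the control cells and in 28 and 34 of the cKO cells. In the control cells left out by the gate it was at 95.5 and 163 CPM. Dgki, a diacylglycerol kinase, gave no UMI in control and 77.6 and 75.9 CPM in cKO, which is at least 18.1-fold higher when 3 UMIs over the control group are taken as the floor. Cebpa, a transcription factor best known in myeloid cells, also gave none in control and 42.9 and 80.2 CPM in cKO, at least 15.4-fold higher. The 11 myeloid markers summed to 161 and 139 CPM in control and 165 and 133 CPM in cKO Foxp3+ cells, and none was at 0 in all 4 libraries. 

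Nav2, on chromosome 7 and known as a cytoskeletal regulator, was at 77.3 and 62.0 CPM in control and at 686 and 404 CPM in cKO (2.85, SE 0.39, adjusted p = 2.79e-06). The hypoxia-inducible factor Epas1 (HIF-2α), on chromosome 17, was at 8.84 and 7.75 CPM in control and at 116 and 107 CPM in cKO (3.19, SE 0.54, adjusted p = 1.13e-05). Smco4, a small membrane protein gene on chromosome 9, was at 44.2 and 73.6 CPM against 288 and 387 CPM (2.47, SE 0.40, adjusted p = 4.24e-05). In each of these genes both cKO libraries lay above both control libraries. Ttc39c was at 22.1 and 11.6 CPM against 147 and 107 CPM (2.55, SE 0.48). The cytoskeletal gene Lima1 had 1 UMI in control and 62 in cKO, a ratio of 37.1 with a 95% counting interval of 6.42 to 1489. 

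**Figure D3:**
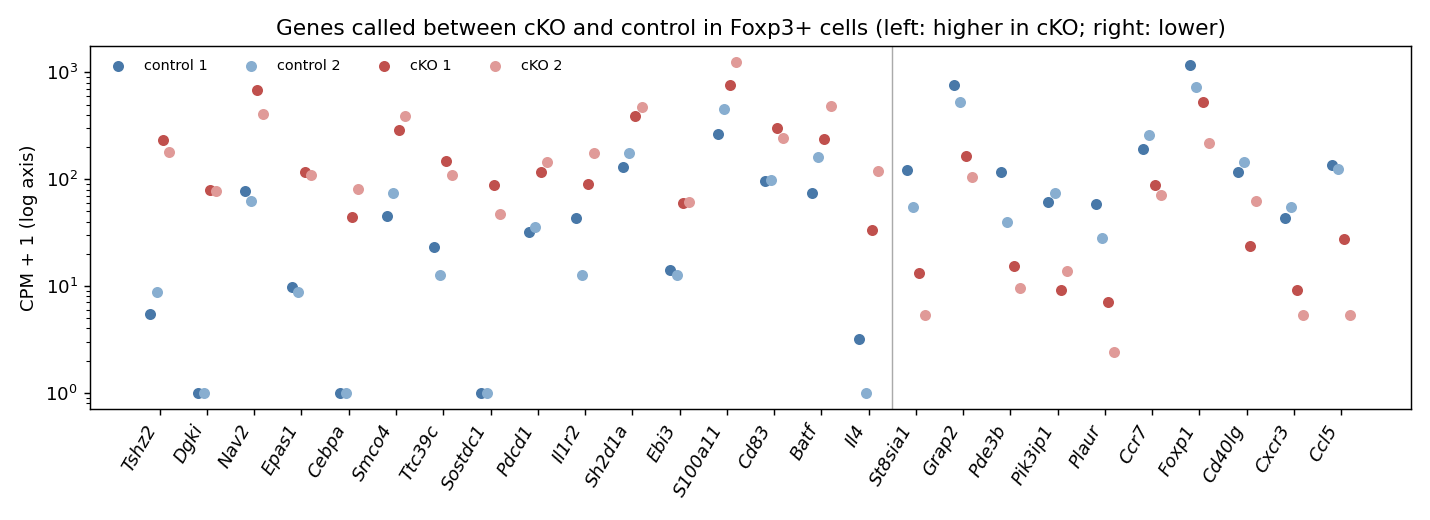
Level of 26 genes called between genotypes in the Foxp3+ cells of each library, in CPM plus 1 on a log axis, where points are libraries and a point at 1 stands for no UMI. The 16 genes on the left were higher and the 10 on the right lower in both cKO libraries than in both control libraries.

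Among the genes that fell, Grap2 alone was called under all 12 settings. Grap2 (Gads), an adaptor downstream of the T cell receptor, on chromosome 15, was at 753 and 523 CPM in control and at 165 and 103 CPM in cKO (fell by 2.25, SE 0.36, adjusted p = 6.17e-05). The sialyltransferase St8sia1 was at 121 and 54.2 CPM against 12.3 and 4.30 CPM (fell by 3.02, SE 0.53, adjusted p = 2.18e-05), a call lost without control replicate 1 (adjusted p = 0.136). The phosphodiesterase Pde3b, at 115 and 38.7 CPM against 14.3 and 8.59 CPM, fell by 2.50 (SE 0.51) and lost its call without control replicate 1 (adjusted p = 0.787). Pik3ip1, an inhibitor of PI3 kinase that quiescent T cells express, was at 59.6 and 73.6 CPM against 8.17 and 12.9 CPM (fell by 2.23, SE 0.51, adjusted p = 0.00178) and was called in each fit that left out a library. Gab3, Plaur, Nedd4l and Rundc3b fell by 2.30, 2.68, 2.18 and 1.93. The call of Gab3 was lost without control replicate 1 (adjusted p = 0.0649) and cKO replicate 2 (adjusted p = 0.130), that of Plaur without control replicate 1 (not testable) and cKO replicate 2 (adjusted p = 0.115), that of Nedd4l without control replicate 1 (adjusted p = 0.447) and cKO replicate 2 (adjusted p = 0.182), and that of Rundc3b without cKO replicate 2 (adjusted p = 0.513). 

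The 12 resting Treg genes all had a negative fitted sign in cKO, with a list median of -0.996 against -0.00 for all genes. Of the 12, 2 were called lower, where 0.66% of all genes were. In the Foxp3-negative cells of the same libraries 11 of the 12 had a negative sign and the median was -0.77. None was called there in the fit without a block, and the list was not counted with the batch as a block. Ccr7, the chemokine receptor for T cell zones, was at 190.0 and 259.6 CPM in control and at 87.8 and 70.2 CPM in cKO (fell by 1.48, SE 0.37, adjusted p = 0.0165). It was detected in 52.5% and 55.3% of control cells and in 20.97% and 23.8% of cKO cells. Foxp1, a quiescence factor, was at 1166 and 732 CPM against 523 and 219 CPM (fell by 1.39, SE 0.37, adjusted p = 0.0382). The call of Ccr7 was lost without control replicate 2 (adjusted p = 0.159), cKO replicate 1 (adjusted p = 0.0597) and cKO replicate 2 (adjusted p = 0.469), and that of Foxp1 without control replicate 1 (adjusted p = 0.548) and cKO replicate 2 (adjusted p = 0.999). Lef1 and Bach2, named after their values were seen, did not pass the test (log2 fold changes -1.12 and -1.89 with adjusted p = 0.0870 and 0.0611), and with the batch as a block their adjusted p-values were 2.39e-04 and 3.29e-06. 

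Of 15 follicular T cell genes tested, 12 had a positive fitted sign in cKO, with 4 called higher, 1 called lower and a list median of 0.63. Over all genes, 0.753% were called higher and 0.66% lower. In the Foxp3-negative cells of the same libraries 17 of 18 had a positive sign, with a median of 1.26, and 4 were called higher, where 0.985% of all genes were. These were Pdcd1, Sostdc1, Tox2 and Rgs16. Pdcd1 (PD-1), an inhibitory receptor also counted among the suppressive molecules, was at 30.9 and 34.9 CPM in control and at 116 and 143 CPM in cKO (1.86, SE 0.44, adjusted p = 0.00642). It was detected in 13.6% and 17.0% of control cells and in 37.1% and 39.3% of cKO cells. Sh2d1a (SAP), an adaptor for T cell and B cell contact, was at 128 and 174 CPM against 392 and 474 CPM (1.49, SE 0.36, adjusted p = 0.0132). Il1r2 was at 42.0 and 11.6 CPM against 89.8 and 175 CPM (2.03, SE 0.48, adjusted p = 0.00819), and the cells that held it numbered 1 and 1 in control. Sostdc1, a secreted antagonist made by follicular T cells, gave no UMI in control and 87.8 and 45.8 CPM in cKO, at least 14.96-fold higher. It came from 7 and 5 cells, 1 of which held 65.6% of the UMIs of cKO replicate 2. Cd40lg moved the other way, from 115 and 143 CPM to 22.5 and 61.6 CPM (fell by 1.48, SE 0.42, adjusted p = 0.0461). Sostdc1 was called in each fit that left out a library. 

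The other follicular calls were each lost in some of the fits that left out a library. Such a fit holds a single library in a group, so a lost call does not show that the difference came from that library. The call of Pdcd1 was lost without control replicate 1 (adjusted p = 0.158) and cKO replicate 2 (adjusted p = 0.0936). That of Sh2d1a was lost without control replicate 1 (adjusted p = 0.440), control replicate 2 (adjusted p = 0.0586) and cKO replicate 2 (adjusted p = 0.237). Il1r2 lost its call without control replicate 2 (adjusted p = 0.101) and cKO replicate 2 (adjusted p = 0.286), and Cd40lg without control replicate 1 (adjusted p = 0.0522), control replicate 2 (adjusted p = 0.0986) and cKO replicate 1 (adjusted p = 0.407).

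Among 20 effector genes 17 had a positive fitted sign, with a list median of 0.51. Of the 20, 2 were called higher, where 0.753% of all genes were. In Foxp3-negative cells 17 of 21 had a positive sign, with a median of 0.74, and Nfil3, Maf and Bhlhe40 were called higher. The AP-1 family factor Batf, which effector Tregs need, was at 72.9 and 159 CPM in control and at 235 and 483 CPM in cKO (1.64, SE 0.41, adjusted p = 0.0225). The calcium-binding protein S100a11 was at 265 and 453 CPM against 756 and 1239 CPM (1.47, SE 0.36, adjusted p = 0.0165). The call of Batf was lost without control replicate 1 (adjusted p = 0.549) and cKO replicate 2 (adjusted p = 0.901), and that of S100a11 without control replicate 1 (adjusted p = 0.519) and cKO replicate 2 (adjusted p = 0.731). Of 15 Treg identity genes the activation marker Cd83 was called, at 94.98 and 96.9 CPM against 300.2 and 242 CPM (1.44, SE 0.36, adjusted p = 0.0200), and its call was lost without control replicate 1 (adjusted p = 0.303), control replicate 2 (adjusted p = 0.132), cKO replicate 1 (adjusted p = 0.121) and cKO replicate 2 (adjusted p = 0.0978) and with no exclusion of Il1rl1, Klrg1 and Areg (0.561). Ebi3 rose from 13.3 and 11.6 CPM to 59.2 and 60.2 CPM (1.91, SE 0.53, adjusted p = 0.0141), a call lost without control replicate 1 (adjusted p = 0.155), control replicate 2 (adjusted p = 0.0513) and cKO replicate 2 (adjusted p = 0.144).

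The 3 defining markers beside Foxp3 were not called between genotypes. Il2ra was at 340.2 and 341 CPM in control and 257 and 136 CPM in cKO, with no overlap between the groups (log2 fold change -0.82, SE 0.35, adjusted p = 0.305). It was detected in 64.4% and 55.3% of control cells and in 33.9% and 29.8% of cKO cells, or in 39.7%, 31.9%, 20.97% and 15.5% once cells were thinned to 2000 UMIs. Ctla4 had a log2 fold change of -0.71 (adjusted p = 0.348) and Ikzf2 one of 0.45 (adjusted p = 0.611). With the batch as a block, the adjusted p-values of Il2ra, Ctla4 and Ikzf2 were 0.0141, 0.0197 and 0.00806. Gata3, chosen after its values were seen, was at 133 and 93.0 CPM against 251 and 262 CPM (1.12, adjusted p = 0.102, and 0.00222 with the block). 

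Helper cytokine and receptor genes gave 1 call in each direction among 8 tested, where 0.753% of all genes were called higher and 0.66% lower. Il4 had 1 UMI in control and 98 in cKO Foxp3+ cells, a ratio of 58.6 (95% counting interval 10.3 to 2339), at 32.7 and 117 CPM in the cKO libraries, where 10 and 23 cells held it. Its call was lost without cKO replicate 2 (adjusted p = 0.563). The chemokine receptor Cxcr3, typical of type 1 responses, was at 42.0 and 54.2 CPM in control and at 8.17 and 4.30 CPM in cKO (fell by 2.35, SE 0.63, adjusted p = 0.00418), a call lost without control replicate 1 (adjusted p = 0.131), control replicate 2 (adjusted p = 0.155) and cKO replicate 2 (adjusted p = 0.151). With Ccr7 it gave the 2 calls among 15 trafficking receptors, both lower. Of the CD8 T and NK cell markers, the chemokine Ccl5 was called, at 135 and 124 CPM against 26.5 and 4.30 CPM (fell by 2.89, SE 0.49, adjusted p = 6.19e-05), but 1 cell held 77.0%, 71.9%, 76.9% and 66.7% of its UMIs in control replicates 1 and 2 and cKO replicates 1 and 2. The 7 such markers summed to 168 and 271 CPM in control and 65.3 and 44.4 CPM in cKO, and none was at 0 in all 4 libraries. The part of these cells in the fall of Cxcr3 was not tested. 

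By DESeq2, Sh2d1a, Sostdc1 and Ccl5 were called among the 14 list genes called by edgeR, and the other 11 had adjusted p-values from 0.0599 to 0.393. In the fit without a block, the IL-2 receptor and STAT5, T cell receptor signal, costimulation and NF-κB, cell cycle, interferon-stimulated, eIF3, B cell, plasma cell, myeloid, sex-linked and dissociation stress lists held no call. No gene of the NKT and gamma delta T cell or the erythroid and platelet list was abundant enough to test. With the batch as a block, Il2ra of the IL-2 receptor and STAT5 list passed the threshold, as given above. Of 12 cell cycle genes tested, 11 had a positive sign in cKO, with a median of 0.59, and 1 had an unadjusted p under 0.05. Over all genes, 783 of 6511 had one. Mki67, a marker of cycling cells, was detected in 8.47% and 4.26% of control and 22.6% and 19.0% of cKO Foxp3+ cells, or in 5.17%, 0%, 12.9% and 7.14% once cells were thinned, and its summed level was not called (log2 fold change 0.59, adjusted p = 0.862). Among the most abundant members of these lists, Jak1, Pim1, Cd5, Lck, Nfkbia, Icos, Hmgb2, Tubb5, Ifi203, Eif3f, Eif3h, Ighm, Cd74, Xbp1, Cst3, Ddx3y, Uty, Junb and Jund had log2 fold changes from -0.68 to 0.98 and adjusted p-values from 0.157 to 0.992. B cell marker RNA summed to 1584 and 1221 CPM in control and 1301 and 2042 CPM in cKO Foxp3+ cells, and stress genes to 3494 and 5956 CPM against 4862 and 5770.1 CPM, so that both sums overlapped between genotypes. Of 8 B cell markers tested, 4 had a positive and 4 a negative sign in cKO, and 6 had an unadjusted p under 0.05, against 783 of all 6511 genes. 

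**Figure D4:**
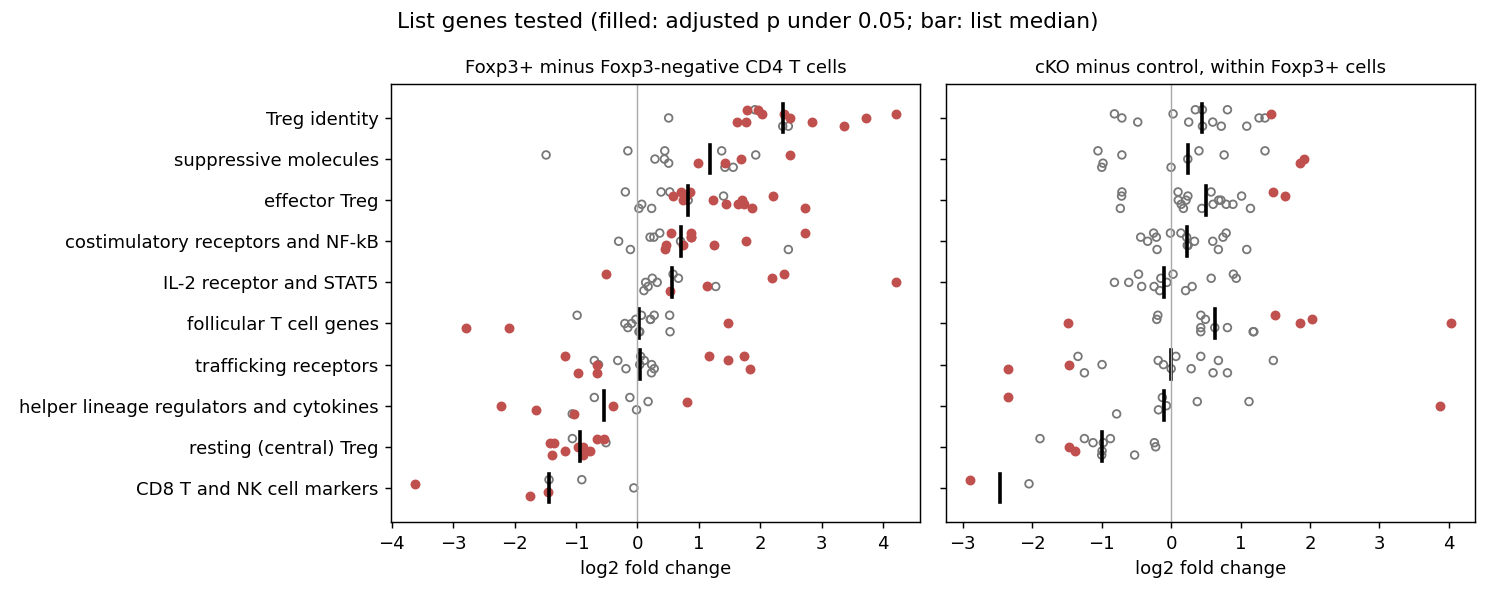
Log2 fold changes (x axis) of the tested genes of 10 lists, for Foxp3+ against Foxp3-negative CD4 T cells (left) and for cKO against control within Foxp3+ cells (right), where filled points have an adjusted p under 0.05 and black bars are list medians. Resting genes lie below 0 in both panels (medians -0.93 and -0.996), and Treg identity genes have a median of 2.36 on the left and 0.45 on the right. The fitted value of Sostdc1 on the right depends on the prior count, since control had no UMI.

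The genotype by cell class interaction asked whether the cKO effect differed between Foxp3+ and Foxp3-negative cells, over 8 sums. Of 11113 genes, 156 were called (1.4%), 40 with a more positive (0.36%) and 116 with a more negative (1.04%) cKO effect in Foxp3+ than in Foxp3-negative cells. DESeq2 called 28, all more negative, and the fits without control replicate 2 and without cKO replicate 2 called 80 and 85, of which 56 and 59 were among the 156. Within Foxp3-negative cells, 118 of 11368 genes passed between genotypes (1.04%), of which 112 rose (0.985%) and 6 fell (0.0528%) in cKO. With the batch as a block 1136 were called there, 623 higher and 513 lower, so that the one-sided split was not kept. Both genotype comparisons stand on the same 4 libraries, so their values are given side by side.

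Of 15 identity genes 5 were more negative in Foxp3+ cells and none more positive. Ikzf2 was at 1635 and 1248 CPM in control and 2367 and 1648 CPM in cKO Foxp3+ cells, whereas in Foxp3-negative cells it was at 131 and 86.6 CPM and 753 and 770.0 CPM (difference of log2 fold changes -2.31, SE 0.14, adjusted p = 2.73e-14). Ctla4 had a log2 fold change of -0.71 in Foxp3+ and 0.57 in Foxp3-negative cells (difference -1.23, SE 0.12, adjusted p = 1.43e-15). The costimulatory receptor Tnfrsf4 (OX40) had 1.09 and 2.70 (difference -1.62, SE 0.22, adjusted p = 4.40e-09), the coreceptor Nrp1 0.45 and 2.01 (difference -1.57, SE 0.23), and Izumo1r 0.25 and 1.06 (difference -0.81, SE 0.17). Nrp1 lost its call without control replicate 1 (adjusted p = 0.0811), and Izumo1r without control replicate 2 (adjusted p = 0.0964). 

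In absolute levels, Tnfrsf4 was at 197, 298, 363 and 692 CPM in Foxp3+ cells and at 16.1, 23.8, 101 and 172 CPM in Foxp3-negative cells (control replicates 1 and 2, cKO replicates 1 and 2). Nrp1 was at 296, 170.5, 333 and 324 CPM against 29.3, 29.96, 111 and 139.6 CPM. For each of these 5 genes the Foxp3+ cells stayed above the Foxp3-negative cells of their own library. A share of Tregs without a Foxp3 UMI inside the Foxp3-negative class cannot be told apart from expression of these genes by other CD4 T cells. 

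**Figure D5:**
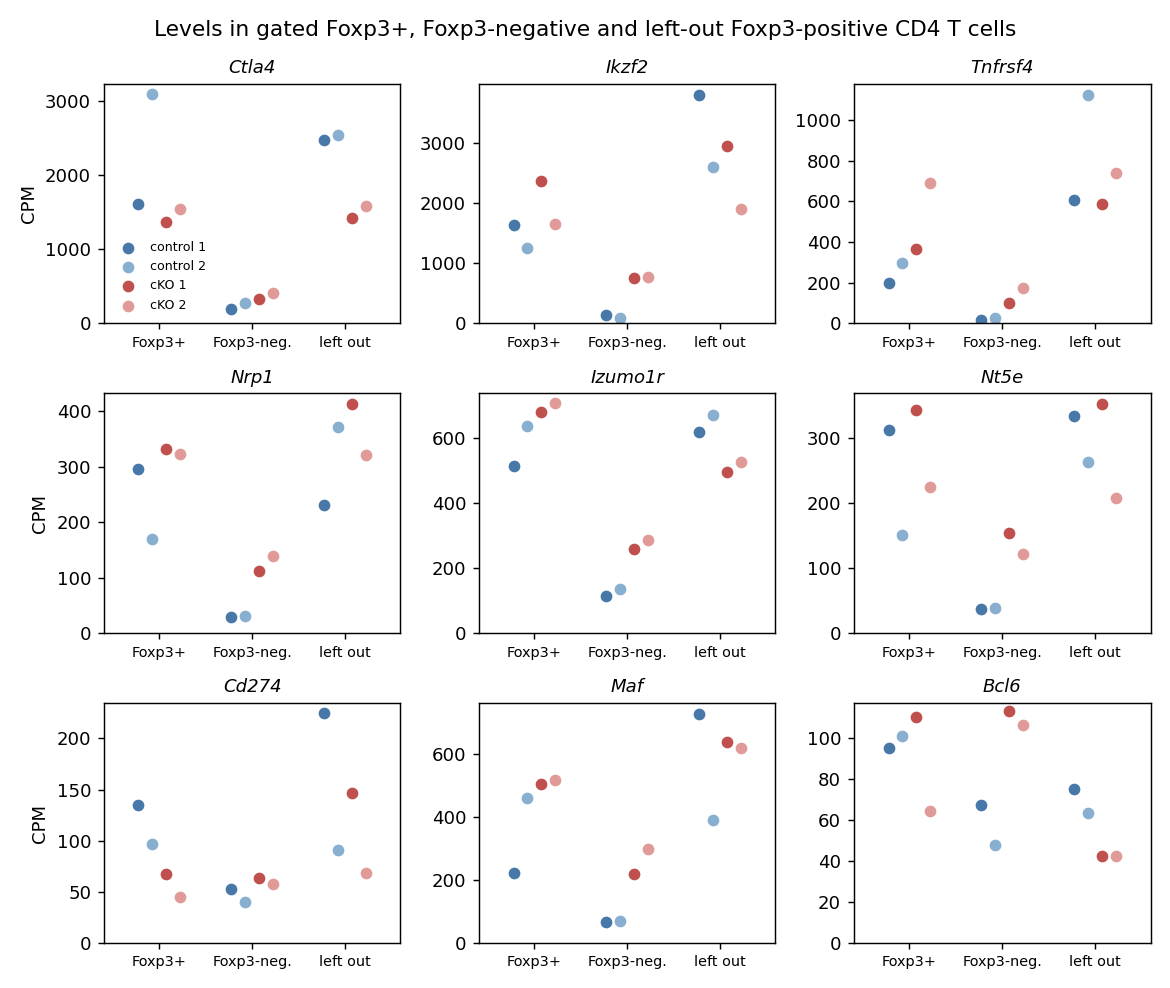
CPM (y axis, from 0) of 9 genes called in the interaction test, in gated Foxp3+ cells, Foxp3-negative CD4 T cells and the left-out Foxp3-positive cells with Il1rl1, Klrg1 or Areg, where points are libraries. For Ikzf2 the Foxp3-negative cells of cKO lie at 753 and 770.0 CPM, above 131 and 86.6 CPM in control.

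Of 15 suppressive molecules 4 were more negative, those of Ctla4, the ectonucleotidase Nt5e (CD73; 0.24 against 1.77, difference -1.56, SE 0.24), the ligand Cd274 (PD-L1; -1.05 against 0.32, difference -1.43, SE 0.31) and the cytokine Il10 (difference -2.77, SE 0.74). Nt5e lost its call without control replicate 1 (adjusted p = 0.279), Cd274 without control replicate 1 (adjusted p = 0.110) and cKO replicate 2 (adjusted p = 0.115), and Il10 without control replicate 2 (adjusted p = 0.759) and cKO replicate 1 (adjusted p = 0.266). Il10 was detected in 3, 4, 2 and 6 Foxp3+ cells (control replicates 1 and 2, cKO replicates 1 and 2).

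Of 12 resting genes Bach2, Bcl2 and Foxp1 were more negative in Foxp3+ cells, by differences of -1.06, -0.97 and -0.61 (SE 0.18, 0.23 and 0.13). Bach2, a repressor of effector programmes, was at 791, 426, 267 and 70.2 CPM in Foxp3+ cells against 1061, 553, 598 and 288 CPM in Foxp3-negative cells. The survival gene Bcl2 lost its call without control replicate 2 (adjusted p = 0.134) and cKO replicate 2 (adjusted p = 0.154), and Foxp1 without control replicate 2 (adjusted p = 0.129) and cKO replicate 2 (adjusted p = 0.391). Of 21 effector genes Maf, Bhlhe40 and S100a4 were more negative (-1.20, -1.35 and -0.90) and Vim more positive (0.93). Maf was at 223, 461, 504.3 and 519.9 CPM in Foxp3+ cells against 67.8, 68.1, 221 and 299.6 CPM. Maf lost its call without control replicate 2 (adjusted p = 0.421), Bhlhe40 without control replicate 2 (adjusted p = 0.762) and cKO replicate 2 (adjusted p = 0.0953), S100a4 without control replicate 1 (adjusted p = 0.347), control replicate 2 (adjusted p = 0.0627) and cKO replicate 1 (adjusted p = 0.308), and Vim without control replicate 2 (adjusted p = 0.0829) and cKO replicate 1 (adjusted p = 0.0527). 

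Single members of other lists were called too. Bcl6, the master factor of follicular T cells, was at 94.98, 101, 110.3 and 64.4 CPM in Foxp3+ cells and at 67.2, 47.6, 113 and 106 CPM in Foxp3-negative cells (difference -1.06, adjusted p = 0.0317). Il2rb, the shared IL-2 and IL-15 receptor chain, had a difference of -1.33 (SE 0.23) and Cxcr3 of -2.63 (SE 0.56), while Nfkbia, Gpr183 and Ighm were more positive in Foxp3+ cells by 0.64, 0.71 and 0.76. Bcl6 lost its call without control replicate 1 (adjusted p = 0.0508), control replicate 2 (adjusted p = 0.567) and cKO replicate 2 (adjusted p = 0.700), and Cxcr3 without cKO replicate 2 (adjusted p = 0.0887). Nfkbia lost its call without control replicate 2 (adjusted p = 0.216) and cKO replicate 2 (adjusted p = 0.410), Gpr183 without control replicate 2 (adjusted p = 0.419) and cKO replicate 2 (adjusted p = 0.575), and Ighm without control replicate 2 (adjusted p = 0.175) and cKO replicate 2 (adjusted p = 0.850). No gene of the T cell receptor signal, cell cycle, interferon, eIF3, plasma cell, CD8 T and NK cell, NKT and gamma delta T cell, myeloid, erythroid and platelet, sex-linked or stress lists was called. 

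Outside the lists, Ms4a4b, Kcnq5, Foxn3, Itgb8, Grap2, Ppp3cc, Lrig1 and Epsti1 had the lowest p among the more negative genes. Ms4a4b, a membrane protein gene of T cells, was at 943, 1410.4, 415 and 377 CPM in Foxp3+ cells against 1168, 1579, 1077 and 1328 CPM in Foxp3-negative cells (difference -1.33, SE 0.12, adjusted p = 3.35e-16). Grap2 had -2.25 in Foxp3+ and -1.03 in Foxp3-negative cells (difference -1.24, SE 0.17, adjusted p = 5.61e-09). Itgb8, a chain of the integrin that activates TGF-β, had a difference of -2.54 (SE 0.32). These 8 genes were called in each fit that left out a library. Among the 8 more positive genes, Sparc and Cd36 had 1.00000 and 0.999 as adjusted p-values without cKO replicate 1. Sparc was at 0, 0, 81.7 and 0 CPM and Cd36 at 2.21, 3.87, 75.6 and 0 CPM in Foxp3+ cells. The other 6 were Prdx1, Gmfg, Emb, Calcrl, Fabp5 and Anp32e, of which Prdx1, an antioxidant enzyme gene, was at 249.6, 283, 541 and 665 CPM in Foxp3+ cells against 217, 306, 283 and 360.0 CPM (difference 0.89, SE 0.18), a call lost without control replicate 2 (adjusted p = 0.0505). 

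The cells left out for Il1rl1, Klrg1 or Areg, 17 and 19 in control and 102 and 226 in cKO, are given beside the gated cells as a description. In control, Ccr7 was at 0 and 18.1 CPM in the left-out cells and 190.0 and 259.6 CPM in the gated Foxp3+ cells, Cd83 at 464 and 589.8 CPM and 94.98 and 96.9 CPM, and Pdcd1 at 157 and 118 CPM and 30.9 and 34.9 CPM. Tshz2 was at 95.5 and 163 CPM in the left-out cells of control and at 223 and 169 CPM in those of cKO, while in the gated cells it was nearly absent from control. Epas1 was at 6.82 and 9.07 CPM in the left-out cells of control, whose sums held 146611 and 110212 UMIs. These values rest on too few UMIs to be set against the gated cells of control. In the left-out cells of cKO it was at 158 and 102 CPM, near the levels of the gated cells of cKO. Between the left-out cells of control and those of cKO, Nav2 was at 123 and 263 CPM against 993 and 565 CPM. Smco4 was at 129.6 and 136 CPM against 341 and 410.2 CPM, and Grap2 at 293 and 181 CPM against 139.9 and 78.2 CPM. With the left-out cells added, 175 genes were called between genotypes, and 74 of the 92 were among them.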

How the data were processed

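Single-cell UMI counts were deposited by the authors as one gene by cell matrix per library, made with the SeekOne DD 3′ kit. Per the labels the builds are GRCm38 and mm10. The aligner and counter were not given in the sources used here. No normalization had been applied. All libraries held genes by Ensembl ID and symbol. Cells were kept above 100 genes and 200 UMIs and at most 10% mitochondrial UMIs, and no doublet caller was run. A stricter gate stood in for it. UMI counts were summed per library and cell class. edgeR 4.0.16 (TMM, filterByExpr, robust quasi-likelihood test) was run in R 4.3.3, with DESeq2 1.42.0 as alternative. Shares carry 95% Wilson intervals and were tested by exact permutation with scipy. Intervals and floors (3 UMIs over a group) cover counting error only, and SEs were derived from the unshrunk fold change and the F statistic, while printed fold changes use a prior count of 2. CPM in the text is relative to all UMIs in the sum.

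The genotype fit had no block. The study names none for changed genes, although its clustering was corrected for batches with Harmony. The comparison of cell classes had the library as a block. The labels say that a replicate number is a batch, so the numbers pair the libraries. Deviations of same-numbered libraries from their group means correlated across genes at 0.293 in Foxp3+ and 0.733 in Foxp3-negative cells. With 2 pooled libraries per genotype, p-values of the genotype fit without a block rest on a spread that holds pools and batches together. Those of the cell class and interaction fits rest on how the difference within a library varied between libraries. In every edgeR fit the spread of a gene was estimated with information from all genes tested. A small p-value is therefore not a measure of that gene's own spread over the few libraries. Genes were named by a fixed rule: the 4 markers and Eif3e, called members of 21 lists (at most 3 in each direction where over 6 were called; the 2 most abundant where none was), and the 8 genes of lowest p in each direction outside them, without immunoglobulin, T cell receptor, ribosomal, mitochondrial and unnamed genes. The gate, members and lists were chosen with earlier results of these data known. Values of some genes that the rule names are not reported here. Gene positions are from GENCODE vM21. The test was checked on simulated counts with the same dispersion for every gene and no library or batch effect. Of genes given a log2 fold change of 1 or 2 in size, 22.2% and 81.4% were recovered between genotypes. Between cell classes 68% and 100% were recovered, and in the interaction 5% and 54%. A gene that was not called is therefore not shown to be unchanged.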

Additional observations from a re-analysis of the deposited data

Results flagged for a closer look

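The genotype effect differed between Foxp3+ and Foxp3-negative CD4 T cells for 156 of 11113 genes by the interaction term of edgeR (adjusted p under 0.05). DESeq2 called 28. Many of the genes named here lost their call in fits that left out a library, as given with the interaction. Il10 was detected in only 3, 4, 2 and 6 Foxp3+ cells (control replicates 1 and 2, cKO replicates 1 and 2). Among Treg identity and suppressive genes the differences of log2 fold changes were -1.23 for Ctla4, -2.31 for Ikzf2, -1.62 for Tnfrsf4, -1.57 for Nrp1, -0.811 for Izumo1r, -2.77 for Il10, -1.56 for Nt5e and -1.43 for Cd274. Among resting and effector genes they were -1.06 for Bach2, -0.969 for Bcl2, -0.614 for Foxp1, -1.35 for Bhlhe40, -1.2 for Maf, -0.902 for S100a4 and 0.928 for Vim.

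Single members of the other lists that differed were Bcl6 (-1.06), Il2rb (-1.33), Nfkbia (0.639), Cxcr3 (-2.63), Gpr183 (0.71) and Ighm (0.757). Outside the lists, the effect was more positive in Foxp3+ cells for Sparc (6.84), Prdx1 (0.887), Gmfg (0.861), Emb (0.721), Calcrl (1.83), Cd36 (4.42), Fabp5 (1.87) and Anp32e (1.03). The values of Sparc and Cd36 rest on cKO replicate 1, without which they were 2.70 and 0.397 (adjusted p = 1 and 0.999, edgeR), and they depend on the prior count, since Sparc gave no UMI in the Foxp3+ cells of the other 3 libraries. Cd36 was at -0.50 with at least 2 Foxp3 UMIs. It was more negative for Ms4a4b (-1.33), Kcnq5 (-1.6), Foxn3 (-1.03), Itgb8 (-2.54), Grap2 (-1.24), Ppp3cc (-1.62), Lrig1 (-1.34) and Epsti1 (-1.19).

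Outside the gate, Foxp3-positive CD4 T cells with a UMI of Il1rl1, Klrg1 or Areg made up a mean of 67.5% of the Foxp3-positive CD4 T cells of cKO, above 25.6% in control. Among Foxp3-negative CD4 T cells, the mean share with a UMI of these genes was 23.7% in cKO and 2.80% in control.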

How the results depend on the processing

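The 92 genes called between genotypes became 19 by DESeq2, 22 with at least 2 Foxp3 UMIs, 175 with no exclusion of Il1rl1, Klrg1 and Areg, 54 with the stricter gate, 12 with cells thinned to 2000 UMIs and 39 to 122 without one library. The 1025 genes between cell classes became 617 with thinned cells, 145 with no replicate block and 555 to 919 without one library. The 156 interaction genes became 28 by DESeq2, 283 with no exclusion, 69 with the stricter gate, 36 with thinned cells and 80 to 184 without one library. With the replicate block, which pairs the libraries by batch, 461 genes were called between genotypes and 186 in the interaction, and Foxp3-negative cells gave 1136 in place of 118. The difference in the share of CD4 T cells became 10.3 points with no exclusion, 1.14 with thinned cells and 0.760 with all T cells as denominator, and -0.178 to 0.199 without one library. The causes were not tested. Fewer genes entered the thinned, stricter and 2-UMI fits, and fewer Foxp3+ cells the stricter and 2-UMI fits. Of the 92 genes, 50 were tested with thinned cells and 10 were called again. With at least 2 Foxp3 UMIs, 75 were tested and 20 called again.

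Among the genes named, changes of sign concerned uncalled values, except Cd36. Over all called genes, signs changed for 1 of 156 in the interaction under each of 3 settings (at least 2 Foxp3 UMIs, the stricter gate and without control replicate 1), and for 2 of 1025 between cell classes with thinned cells and 1 with no exclusion. With no exclusion of Il1rl1, Klrg1 and Areg, the log2 fold change was 0.15 for Cd5, -0.0182 for Eif3h, -0.34 for Il2ra (interaction). With cells thinned to 2000 UMIs, the log2 fold change was 0.20 for Cd5, -0.29 for Tubb5, 0.00958 for Ddx3y. With the stricter gate, the log2 fold change was 0.0259 for Lck, -0.22 for Tubb5, -0.00137 for Eif3f, -0.0141 for Il2ra (interaction), -0.26 for Eif3e (interaction). With at least 2 Foxp3 UMIs, the log2 fold change was -0.11 for Eif3f, -0.0237 for Il2ra (interaction), -0.50 for Cd36 (interaction). With total UMIs in place of TMM, the log2 fold change was -0.00119 for Il2ra (interaction), -0.0369 for Eif3e (interaction). With no filter on low counts, the log2 fold change was -0.00721 for Eif3e (interaction). Without one library in turn, it ran from -0.37 to 0.15 for Cd5, -0.41 to 0.20 for Lck, -0.0941 to 0.34 for Tubb5, -0.14 to 0.36 for Eif3f, -0.16 to 0.25 for Eif3h, -0.0119 to 0.47 for Cd74, -0.40 to 0.58 for Junb, -0.0900 to 0.90 for Jund, -0.48 to 0.55 for Il2ra (interaction), -0.19 to 0.21 for Eif3e (interaction).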

Other observations

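Cytosolic ribosomal protein genes, a pattern chosen after its values were seen, were called lower in Foxp3+ than in Foxp3-negative cells for 76 of 90 genes tested and higher for 1, with a median of -0.46, where 5.35% of all genes were called lower and 4.75% higher. With total UMIs in place of TMM 70 were called lower, with a median of -0.32. With no block for the library none was called, although 84 of 90 had a negative sign and the median was again -0.46. Between genotypes none of 86 was called in Foxp3+ cells by edgeR, where 1.41% of all genes were, and none by DESeq2. Of the 86, 4 had an unadjusted p under 0.05, against 783 of all 6511 genes. In Foxp3-negative cells none of 91 was called by edgeR and none had an unadjusted p under 0.05, against 1021 of all 11368 genes. Of the 91, 83 had a negative sign. In the interaction 4 of 90 were called more positive in Foxp3+ cells, where 0.36% of all genes were, and DESeq2 called none. Of these 90, 60 had a positive sign, with a median of 0.04, and 20 had an unadjusted p under 0.05, against 976 of all 11113 genes.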
